A study of Mus musculus with 6 samples.

Results

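The tumour necrosis factor (TNF) superfamily comprises cell surface and secreted ligands and the transmembrane receptors that bind them. The members described here were taken by gene symbol from the deposited table. They were every TNFSF or TNFRSF symbol with a number and at most 1 trailing letter, together with FAS, FASLG, CD40, LTB, LTBR and NGFR. This gave 37 of the 39234 genes in the table, of which 13 encode ligands and 24 encode receptors.

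Ligands of the family fold into trimers and cluster their receptors on the target cell. Receptors that carry a cytoplasmic death domain can assemble caspase-activating complexes. Receptors without it recruit TRAF adaptors and activate NF-kB and JNK signalling, which is not confined to them. Decoy receptors bind ligand without passing on a full signal. In the kidney, TNF and its receptors are known for their part in tubular cell death, survival and inflammation after injury.

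The experiment asked how USAG-1, a secreted antagonist of BMP and Wnt signalling, alters the transcriptome of HK-2 cells, which derive from human proximal tubule and were immortalized. There were 3 control libraries and 3 libraries with USAG-1 overexpression. All 6 libraries carry the genotype label WT and no label for a treatment or a time, and in the study's methods overexpression in cells was by transient transfection of a plasmid. Mouse is the organism that the labels name, although HK-2 is a human line and the Ensembl identifiers of the genes are human. According to the study's methods the line was not authenticated by STR typing. Nothing in the labels says that the replicates were separate cultures. The study's methods give 3 biological replicates per group for most experiments, without saying whether the sequencing was among them. The p-values therefore measure the spread between these samples, which may be technical.

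The control libraries held 41236194, 48699471 and 44611384 counts, and the USAG-1-overexpressing libraries held 45448720, 43837891 and 42782931. Levels are given as CPM, read counts scaled to a common library size by edgeR's TMM method. On this scale 3 counts, the level that a count of 0 allows, equal 0.0608 to 0.0719 CPM depending on the library. Such limits cover counting error only. SOSTDC1, which encodes USAG-1, counted 79, 80 and 60 in control cells and 5072, 3907 and 4438 with overexpression, so each library fitted its label. Gene positions are those of the table, and hg38 is the build in the submitters' processing notes.

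Control replicate 3 stood apart from the other controls. On the second principal component, which held 21.3% of the variance, it scored -54.3 against 28.2 and 25.2 for control replicates 1 and 2. Its counts differed from theirs by a chi-square per degree of freedom of 42.3 and 42.7, against 6.52 between control replicates 1 and 2 and 7.66 to 8.35 among the overexpressing libraries. Results of members that rest on it are therefore given with and without this library. For the lists of signalling and NF-kB target genes the counts of calls are given both ways, and single values for some genes only.

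Of the 37 members, 31 passed the filter on low counts and were tested among 18188 genes, and 6 were not tested. In all, 12 members were called, meaning an adjusted p below 0.05 in the quasi-likelihood test of edgeR (Benjamini-Hochberg, over all genes tested), which is 38.7% of those tested, against 15.9% of all genes tested. There were 3 members that were higher in USAG-1-overexpressing cells, or 9.68%, against 8.95% of all genes, and 9 that were lower, or 29.0%, against 6.91% of all genes. All libraries of 1 group lay above all of the other in 19 of the 31 members (61.3%), against 37.6% of all genes tested. The median log2 fold change was -0.27 over the members tested and -0.02 over all genes tested. The filter bears on these values. Of the 31 members, 24 reached its level of 0.226 CPM in all 3 libraries of both groups, whereas 5 members (FASLG, TNFSF8, TNFSF12, TNFSF13B and TNFSF14) reached it throughout the control group alone, and none of those 5 was called. Without those 5 the median log2 fold change of the members was -0.08, and the groups were apart in 15 of 26 (57.7%). The members were chosen with earlier results of these data known, so these shares describe them and are no test.

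Without control replicate 3, 18 of 32 members tested were called (56.2%), while the share of all genes called also went up, to 27.0%. Of the members 7 were higher (21.9%, against 15.8% of all genes) and 11 lower (34.4%, against 11.2%). All 12 members of the full comparison remained among the 18. The 6 members gained were FAS, TNFRSF10A, TNFRSF13B, TNFRSF1A, TNFRSF21 and TNFSF12. Of these, TNFRSF13B passed the filter through the overexpressing group alone and TNFSF12 through the control group alone, and without them 16 were called, 6 higher and 10 lower. When each of the 6 libraries was left out in turn, 6 of the 12 calls were kept every time, those of TNFRSF1B, TNFRSF18, LTB, TNFRSF11A, TNFSF10 and TNFRSF10D, all of them lower. The other 6 calls, those of CD40, LTBR, TNFRSF8, TNFRSF9, TNFRSF12A and TNFSF9, were each lost without any 1 of the 3 overexpressing libraries.

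**Figure D1:**
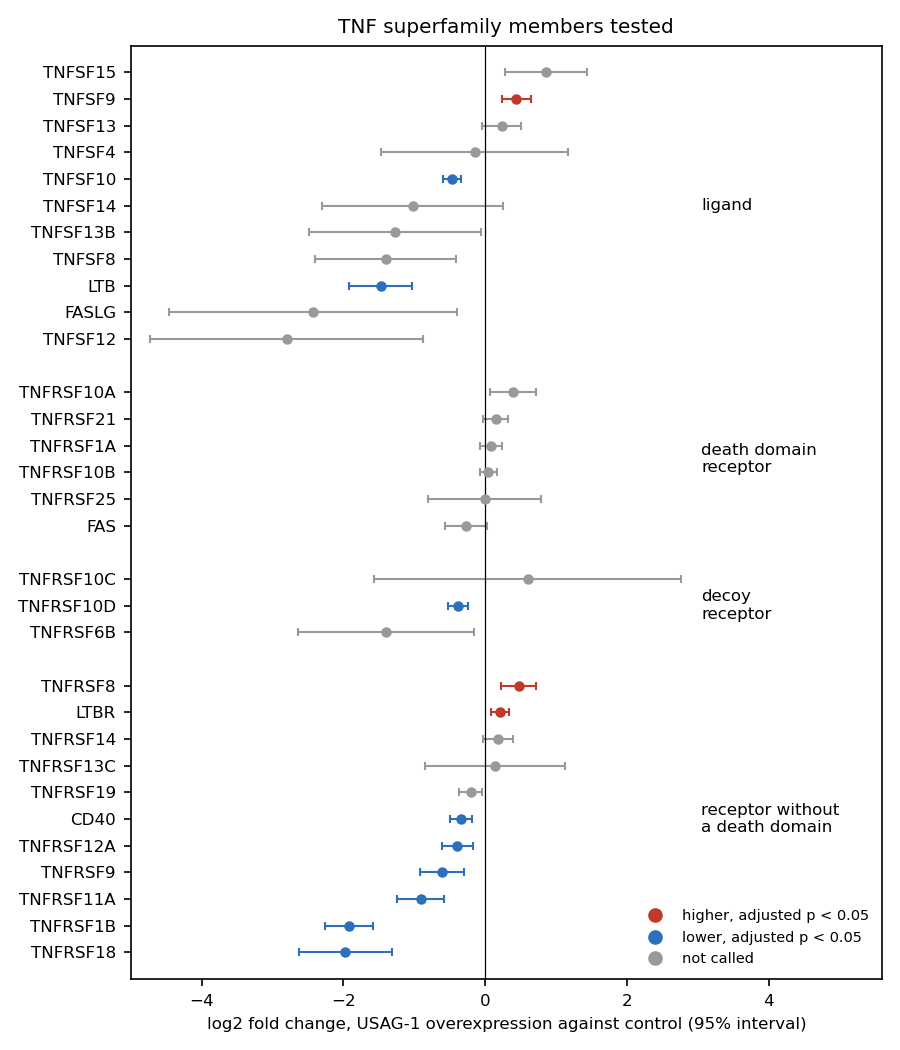
Log2 fold change of each of the 31 members tested, USAG-1 overexpression against control, grouped by role, with bars for the 95% interval from edgeR's quasi-likelihood fit (n = 3 libraries per group). Red points mark the 3 members called higher, blue points the 9 called lower and grey points the 19 not called; none of the 6 death domain receptors is coloured.

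Among the ligands, 11 of 13 were tested, 1 was higher (TNFSF9), 2 were lower (TNFSF10 and LTB) and 8 were not called, against 8.95% higher and 6.91% lower of all genes. TNFSF10 (ENSG00000121858; chromosome 3, 172505508 to 172523475) encodes TRAIL, a ligand that triggers apoptosis through its death receptors. Its level was 227, 239 and 226 CPM in the control libraries and 163, 174 and 163 CPM in the overexpressing libraries. Every overexpressing library was below every control library, and the gap was several times the spread within either group. The fall was 1.39-fold, from 231 ± 7.38 to 167 ± 6.20 CPM (SD, n = 3), with a log2 fold change of -0.47 (SE, the standard error, 0.06, edgeR adjusted p = 0.0017).

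LTB (ENSG00000227507; chromosome 6, 31580525 to 31582522) encodes lymphotoxin beta, which joins lymphotoxin alpha in a membrane-bound heterotrimer that binds the lymphotoxin beta receptor. LTB was at 5.51, 5.82 and 7.83 CPM in control cells and at 2.00, 2.31 and 2.57 CPM in USAG-1-overexpressing cells. Control replicate 3 was the highest library, and the groups were well apart with or without it. LTB fell 2.78-fold, with a log2 fold change of -1.47 (SE 0.20, edgeR adjusted p = 0.00254), and without control replicate 3 the log2 fold change was -1.30.

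TNFSF9 (ENSG00000125657; chromosome 19, 6531026 to 6535924) encodes 4-1BBL, the costimulatory ligand of TNFRSF9. It had 29.1, 30.4 and 36.3 CPM in control libraries and 44.5, 44.1 and 41.7 CPM with USAG-1 overexpression. The overexpressing libraries lay close together above all controls, of which replicate 3 came nearest. TNFSF9 was 1.36-fold higher, with a log2 fold change of 0.44 (SE 0.09, edgeR adjusted p = 0.0153). The log2 fold change was 0.55 without control replicate 3. The call was lost without control replicate 2 (0.41) and without overexpression replicate 1 (0.43), 2 (0.43) or 3 (0.47).

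The 8 ligands that were tested and not called were low in count except TNFSF13, which encodes APRIL, a survival factor of B lineage cells. TNFSF13 was at 11.6, 11.6 and 10.4 CPM in control libraries and at 13.0, 11.7 and 14.8 CPM in overexpressing libraries, and the lowest overexpressing library lay just above the controls. TNFSF12, which encodes TWEAK, the ligand of TNFRSF12A, had 42, 48 and 37 counts in control libraries and 15, 3 and 0 in overexpressing libraries. Its groups did not overlap, the overexpressing libraries were far apart among themselves, and the log2 fold change of -2.80 (SE 0.84) had an adjusted p of 0.0576 in edgeR. TNFSF12 was called lower in 4 of 14 alternative fits. These were the fits without control replicate 3 (-2.86) or overexpression replicate 1 (-4.67), DESeq2 and limma-voom. In the main fit it reached the filter's level throughout the control group alone, so no conclusion is drawn from these calls.

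TNFSF15, which encodes TL1A, had 55, 49 and 36 counts in control libraries and 87, 74 and 92 with overexpression, and its log2 fold change was 0.86 (SE 0.25, edgeR adjusted p = 0.0554). TNFSF8, which encodes the ligand of TNFRSF8, had 28, 32 and 34 counts in control libraries and 10, 8 and 17 with overexpression, and the log2 fold change was -1.40 (SE 0.43, edgeR adjusted p = 0.0638). In both genes the groups did not overlap. TNFSF15 was called higher in 1 of 15 alternative fits, with at least 10 counts required in every library (0.85). TNFSF8 was called lower in 1 of 14, by limma-voom (-1.44). FASLG, which encodes the ligand of FAS, had 13, 18 and 35 counts in control libraries and 4, 8 and 0 in overexpressing libraries. TNFSF13B, which encodes BAFF, had 32, 47 and 39 against 10, 30 and 8 counts. It was called lower in 1 of 14 alternative fits, without overexpression replicate 2 (-2.10), its highest overexpressing library. For FASLG and TNFSF13B too every control library was above every overexpressing library. The counts of TNFSF14, which encodes LIGHT, were 22, 15 and 32 against 6, 12 and 16, and those of TNFSF4, which encodes OX40L, were 20, 19 and 6 against 10, 13 and 17, with groups that overlapped in both. TNFSF8, FASLG, TNFSF13B and TNFSF14 reached the filter's level throughout the control group alone, so no conclusion is drawn from their direction. The remaining ligands were too low to be tested. TNFSF11, which encodes RANKL, had 6, 0 and 8 counts in control libraries and none in overexpressing libraries, and TNFSF18 had 4 counts in 1 overexpressing library and none elsewhere.

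None of the 6 death domain receptors tested was called by edgeR or by limma-voom, whereas DESeq2 called TNFRSF10A. Of all genes, 15.9% were called by edgeR. Without control replicate 3, 4 of the 6 were called, 3 higher and 1 lower, among 27.0% of all genes, 15.8% higher and 11.2% lower. In the full comparison the median log2 fold change of the 6 was 0.06, and 1 of them, TNFRSF10A, reached an unadjusted p under 0.05 in edgeR. TNFRSF1A, the main receptor of soluble TNF, was at 255, 250.1 and 287 CPM in control libraries and at 281, 289 and 270.2 CPM in overexpressing libraries. Control replicate 3 lay within the range of the overexpressing libraries and the other controls lay below it. The log2 fold change of TNFRSF1A was 0.09, with a 95% interval of -0.07 to 0.24, and without control replicate 3 it was 0.16 and called, whereas without control replicate 2 it was 0.05 and not called.

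TNFRSF10A and TNFRSF10B encode the death receptors DR4 and DR5, through which TRAIL signals apoptosis. TNFRSF10A was at 16.2, 16.3 and 22.8 CPM in control libraries and at 24.3, 22.4 and 26.1 CPM in overexpressing libraries. Here again control replicate 3 was within the overexpressing range, and the other controls were lower. The log2 fold change was 0.40 (SE 0.14, edgeR adjusted p = 0.0986), and it was 0.58 and called without control replicate 3. TNFRSF10B was at 163, 169 and 164 CPM in control libraries and at 173, 168 and 171 CPM with overexpression. These 6 values were close together and overlapped, and the 95% interval of the log2 fold change ran from -0.07 to 0.16. TNFRSF10B overlaps RHOBTB2 on the opposite strand, and how reads of overlapping genes were counted is not given in the sources used here.

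FAS, the receptor of FAS ligand, was at 29.7, 26.1 and 20.6 CPM in control libraries and at 21.0, 21.8 and 20.6 CPM in overexpressing libraries. The overexpressing libraries were tight, and control replicate 3 was as low as they were, whereas the other controls were above. The log2 fold change was -0.27 (95% interval -0.56 to 0.02), and without control replicate 3 it was -0.39 and called lower, whereas without control replicate 1 it was -0.14 and not called. FAS overlaps STAMBPL1 and ACTA2, which were at 9.68 and 1.09 CPM on average in control cells. TNFRSF21, which encodes DR6, was at 85.4, 78.1 and 92.6 CPM in control libraries and at 89.9, 101 and 92.9 CPM in overexpressing libraries. Its groups overlapped through control replicate 3, without which its log2 fold change of 0.15 became 0.22 and was called, whereas without control replicate 2 it was 0.09 and not called. TNFRSF25, which encodes DR3, the receptor of TL1A, was at 8.58, 6.63 and 2.86 CPM in control libraries and at 6.60, 4.95 and 6.44 CPM with overexpression. Control replicate 3 was the lowest of all 6 libraries, and the log2 fold change of -0.01 became -0.33 without it, in neither case with a call. NGFR, which encodes the low-affinity neurotrophin receptor, had 3 counts in 1 overexpressing library and none elsewhere.

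The 3 decoy receptors differed among themselves. TNFRSF10D (ENSG00000173530; chromosome 8, 23135588 to 23164027), which binds TRAIL and carries a truncated death domain, was at 86.8, 89.2 and 91.6 CPM in control libraries and at 69.3, 64.2 and 71.6 CPM in overexpressing libraries. Both groups were tight and did not overlap. TNFRSF10D fell 1.30-fold, with a log2 fold change of -0.38 (SE 0.06, edgeR adjusted p = 0.00608). TNFRSF10C, a TRAIL decoy anchored to the membrane by a lipid, had 8, 21 and 68 counts in control libraries and 5, 62 and 79 in overexpressing libraries, so the libraries varied far more within the groups than between them. TNFRSF6B, a soluble decoy for FAS ligand, LIGHT and TL1A, was at 5.72, 2.21 and 9.03 CPM in control libraries and at 1.85, 1.10 and 3.45 CPM in overexpressing libraries. The highest overexpressing library was above the lowest control, and the log2 fold change was -1.40 (SE 0.54, edgeR adjusted p = 0.12). It was -0.88 without control replicate 3, and -1.79 and called without control replicate 2. TNFRSF6B was also called lower by DESeq2 (-1.40) and with a replicate block (-1.35). TNFRSF6B overlaps the readthrough gene RTEL1-TNFRSF6B, which was at 21.6 ± 7.42 and 20.6 ± 0.266 CPM (SD, n = 3), and ARFRP1, which was at 42.3 ± 1.70 and 29.8 ± 1.15 CPM (SD, n = 3), in control and overexpressing cells. Its counts are uncertain for that reason.

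Of the 14 receptors without a death domain, 11 were tested, and 6 of these were lower and 2 higher with USAG-1 overexpression, against 6.91% and 8.95% of all genes. TNFRSF1B (ENSG00000028137; chromosome 1, 12166991 to 12209228) encodes TNFR2, which responds best to membrane-bound TNF and signals through TRAF2. Its level was 10.8, 12.8 and 13.0 CPM in the control libraries and 3.01, 2.98 and 3.71 CPM in the overexpressing libraries. The lowest control was well over the highest overexpressing library, and no library stood out in its group. The decrease from 12.2 ± 1.23 to 3.23 ± 0.414 CPM (SD, n = 3) was 3.78-fold, with a log2 fold change of -1.92 (SE 0.15, edgeR adjusted p = 3.73e-04). Leaving out control replicate 3 gave -1.86.

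TNFRSF18 (ENSG00000186891; chromosome 1, 1203508 to 1206592) encodes GITR, a costimulatory receptor of regulatory and activated T cells. Controls had 79, 127 and 101 counts and overexpressing libraries 29, 18 and 30, or 2.28 ± 0.350 and 0.580 ± 0.148 CPM (SD, n = 3). The groups were far apart, although the counts were low. TNFRSF18 fell 3.92-fold, with a log2 fold change of -1.97 (SE 0.28, edgeR adjusted p = 0.0035), and it was at -1.94 without control replicate 3.

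TNFRSF11A (ENSG00000141655; chromosome 18, 62325287 to 62391288) encodes RANK, the receptor of RANKL. It was at 11.2, 10.8 and 13.4 CPM in control libraries and at 6.90, 5.45 and 6.51 CPM in overexpressing libraries. All overexpressing libraries were below all controls. RANK transcripts fell 1.88-fold, with a log2 fold change of -0.91 (SE 0.14, edgeR adjusted p = 0.00521) and -0.80 without control replicate 3.

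TNFRSF9 (ENSG00000049249; chromosome 1, 7915871 to 7943165) encodes 4-1BB, a receptor that activates NF-kB through TRAF1 and TRAF2. Its level was 64.0, 66.4 and 92.7 CPM in the control libraries and 47.1, 51.4 and 47.9 CPM in the overexpressing libraries. Control replicate 3 was far above the other controls, and all 3 controls were above the overexpressing libraries. The log2 fold change of TNFRSF9 was -0.61 (SE 0.14, edgeR adjusted p = 0.0207), a 1.52-fold fall, and -0.41 without control replicate 3, which kept the call. It lost the call without overexpression replicate 1 (-0.58), 2 (-0.64) or 3 (-0.59).

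TNFRSF12A (ENSG00000006327; chromosome 16, 3018445 to 3022383) encodes FN14, the receptor of TWEAK, which tubular cells induce upon injury. There were 6010, 7067 and 7700 counts in control libraries and 5479, 5181 and 5138 counts in overexpressing libraries, which is 144, 143 and 181 CPM against 119, 119 and 119 CPM. The overexpressing libraries were almost equal and below every control, and control replicate 3 was well above the other controls. TNFRSF12A fell 1.31-fold, with a log2 fold change of -0.39 (SE 0.09, edgeR adjusted p = 0.0261). The size depended on control replicate 3, without which the log2 fold change was -0.26 and still called. The call was lost without overexpression replicate 1 (-0.39), 2 (-0.38) or 3 (-0.39) and without the filter on low counts.

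CD40 (ENSG00000101017; chromosome 20, 46118271 to 46129858), the receptor through which CD40 ligand on T cells activates target cells, was at 65.9, 73.3 and 75.6 CPM in control libraries and at 55.1, 57.8 and 56.4 CPM in overexpressing libraries. The overexpressing libraries formed a narrow range under the controls. CD40 fell 1.27-fold, with a log2 fold change of -0.34 (SE 0.07, edgeR adjusted p = 0.0133) and -0.30 without control replicate 3. The call was lost without control replicate 2 (-0.33) and without overexpression replicate 1 (-0.33), 2 (-0.36) or 3 (-0.34).

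TNFRSF8 (ENSG00000120949; chromosome 1, 12063303 to 12144207) encodes CD30, known from activated lymphocytes. It was at 11.5, 13.5 and 14.1 CPM in control libraries and at 18.7, 18.8 and 16.7 CPM in overexpressing libraries. Each overexpressing library was above each control. TNFRSF8 rose 1.39-fold, with a log2 fold change of 0.47 (SE 0.11, edgeR adjusted p = 0.0228) and 0.54 without control replicate 3. The call was lost without control replicate 1 (0.39) or 2 (0.50) and without overexpression replicate 1 (0.45), 2 (0.45) or 3 (0.53).

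LTBR (ENSG00000111321; chromosome 12, 6375045 to 6391566) encodes the lymphotoxin beta receptor, which activates the noncanonical NF-kB pathway in epithelial and stromal cells. Its level was 249.8, 261 and 264 CPM in control libraries and 294, 311 and 290.0 CPM in overexpressing libraries. The groups were apart by more than the spread in either. LTBR rose 1.16-fold, with a log2 fold change of 0.21 (SE 0.05, edgeR adjusted p = 0.0362) and 0.23 without control replicate 3. The call was lost without control replicate 1 (0.19) or 2 (0.22), without overexpression replicate 1 (0.22), 2 (0.18) or 3 (0.23), without the filter on low counts and with a replicate block. LTBR overlaps SCNN1A on the opposite strand, which was at 116 ± 3.26 and 116 ± 5.32 CPM (SD, n = 3) in control and overexpressing cells.

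**Figure D2:**
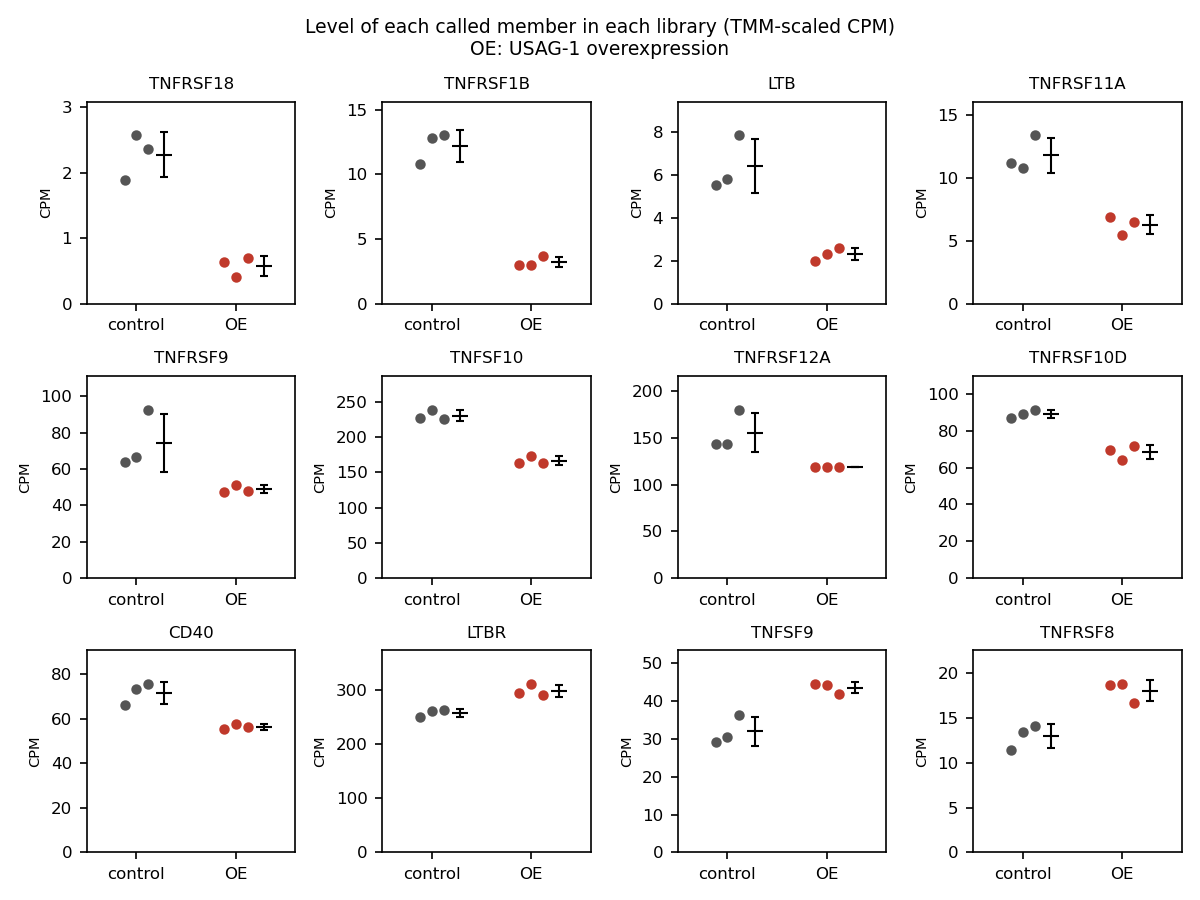
Level of each of the 12 called members in CPM (vertical axes from 0) in each control library (grey) and each library with USAG-1 overexpression (red, OE), replicates 1 to 3 from left to right. The horizontal marks and bars give the mean and SD (n = 3). In every panel the 3 libraries of a group lie on 1 side of the 3 libraries of the other, and control replicate 3 is the highest control in every panel but those of TNFRSF18 and TNFSF10.

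The other receptors without a death domain were not called or not tested. TNFRSF14, which encodes HVEM, a receptor of LIGHT, was at 42.0, 43.5 and 36.1 CPM in control libraries and at 49.9, 42.2 and 46.0 CPM in overexpressing libraries, which overlap. TNFRSF19, which encodes TROY, was at 39.7, 39.2 and 44.7 CPM in control libraries and at 35.7, 35.9 and 35.6 CPM in overexpressing libraries. Its groups did not overlap, with a log2 fold change of -0.20 (SE 0.07, edgeR adjusted p = 0.091) and -0.14 without control replicate 3, also not called. TNFRSF13C, which encodes the BAFF receptor, had 27, 45 and 26 counts in control libraries and 20, 32 and 53 in overexpressing libraries, which overlap. TNFRSF13B, which encodes TACI, a receptor of BAFF and APRIL, had 0, 0 and 2 counts in control libraries and 5, 12 and 15 in overexpressing libraries and was not tested in the full comparison. Without control replicate 3 it passed the filter and was called higher, against 2 control libraries with no count. TNFRSF17 had 4 counts in 1 control library and none elsewhere, and TNFRSF4, which encodes OX40, had 3, 4 and 0 counts in control libraries and 0, 0 and 7 in overexpressing libraries.

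Symbols outside the naming rule cover further genes of the superfamily, and 6 of 9 such genes were tested. Of these, 2 were lower (33.3%, against 6.91% of all genes) and the other 4 were not called by edgeR. The 2 were CD27 and CD40LG, which passed the filter through the control group alone, so no conclusion is drawn from that share. CD27, a costimulatory receptor of lymphocytes, had 59, 45 and 18 counts in control libraries and 6, 2 and 7 in overexpressing libraries, with a log2 fold change of -2.99 (SE 0.63, edgeR adjusted p = 0.0165). It was -3.32 and called without control replicate 3, and the call was lost without control replicate 1 (-2.54) or 2 (-2.99) and without overexpression replicate 1 (-3.10), 2 (-2.62) or 3 (-3.32). CD40LG, the ligand of CD40, had 15, 12 and 46 counts in control libraries and 0, 4 and 0 in overexpressing libraries, and its call (log2 fold change -4.09, SE 1.12, edgeR adjusted p = 0.0429) was lost without any 1 of the 6 libraries, over which the log2 fold change ran from -7.64 to -3.19. Both genes reached the filter's level of 0.226 CPM in all control libraries but not throughout the overexpressing group, so they were tested because of their control counts, and their calls are limited by that choice. TNF itself had 9, 32 and 32 counts in control libraries and 10, 11 and 13 in overexpressing libraries, which overlap. CD70, the ligand of CD27, was at 36.6, 37.0 and 47.6 CPM in control libraries and at 45.3, 50.7 and 48.9 CPM in overexpressing libraries, and it was called higher only without control replicate 3 (0.40). RELT was at 28.9 ± 3.16 and 25.4 ± 1.98 CPM (SD, n = 3) and was not called, nor was EDA, with 4, 3 and 11 against 13, 23 and 19 counts, except without control replicate 3 (2.39). EDA reached the filter's level throughout the overexpressing group alone, which limits that call too. LTA and EDAR were too low to be tested, and EDA2R had no count in any library.

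Set out as ligand and receptor pairs known from the literature of the family, 25 pairs were formed from the members and these further genes after their values had been seen. Both partners were called in 4 of them, where 38.7% of the members tested and 15.9% of all genes tested were called singly. No share was taken for pairs of other genes, so no conclusion about pairs is drawn from this count. TNFSF10 and TNFRSF10D were both lower, as were CD40LG and CD40, although the call of CD40LG had the limits given above and was also lost without the filter on low counts and with a replicate block. LTB was lower while LTBR was higher, and TNFSF9 was higher while TNFRSF9 was lower. Among the 4 TRAIL receptors, whose genes lie side by side on chromosome 8 with gaps of 18.1 to 33.9 kb, only TNFRSF10D was called in the full comparison. TNFRSF8 and TNFRSF1B lie 22.8 kb apart on chromosome 1 and were higher and lower.

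Several members are known from lymphocytes, though not all of them from lymphocytes alone. For example, LTB, TNFRSF18 and TNFRSF1B were lower, TNFRSF8 was higher, TNFSF8, FASLG and TNFRSF13C were not called and TNFRSF13B was not tested. These genes were picked by hand and not from a fixed list. Others that could be added are TNFRSF9 (lower), TNFSF4, TNFSF14, TNFRSF14 and TNFRSF25 (not called) and TNFRSF4 and TNFRSF17 (not tested). No conclusion about lymphocyte members as a group is drawn from them. Transcripts of T and NK cells were lower with overexpression. Of 17 marker genes of T and NK cells, all 17 were tested. With USAG-1 overexpression 16 were lower by edgeR (94.1%, against 6.91% of all genes), by 3.09-fold (PTPRC) to 38.0-fold (GZMA). As the list was chosen with earlier results of these data known, that share is a description and no test. The list summed to 130.1, 123 and 140.3 CPM in control libraries and to 43.1, 34.8 and 32.6 CPM in overexpressing libraries. Of the 16, 6 genes, GZMA among them, reached the level of the filter throughout the control group alone, so the filter bears on that count. The other 10 reached it throughout both groups. GZMA had 21, 0 and 3 counts in overexpressing libraries, so its fold is uncertain. None of the 17 genes was at 0 in all libraries, and 15 were called lower without control replicate 3, where 11.2% of all genes were lower. The most abundant marker was GNLY in control cells and IL7R in overexpressing cells. IL7R was the marker not called, and without it the other 16 genes summed to 108, 102 and 122 CPM in control libraries and to 15.6, 11.2 and 10.7 CPM with overexpression. TRAC, the constant region of the T cell receptor alpha chain, was at 9.82, 9.85 and 11.0 CPM in control libraries and at 0.871, 0.298 and 0.255 CPM in overexpressing libraries. Every overexpressing library was far below every control. The source of these transcripts in libraries labelled HK-2 is not known, and whether T or NK cells were present was not tested. In such bulk RNA, fewer cells of a type and less RNA per cell cannot be told apart. The part of T and NK cell transcripts in the members' results was not tested.

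Markers of other cells did not divide the groups alike. Of all genes tested, 8.95% were higher and 6.91% lower. The shares called were 14.3% of the B cell, 20% of the myeloid, 33.3% of the fibroblast and 22.2% of the epithelial markers tested, each from 1 or 2 genes. Of 7 B cell markers tested, CD22 was higher and 6 were not called, and the list summed to 8.67, 7.46 and 9.71 CPM in control libraries and to 12.2, 13.8 and 16.6 CPM in overexpressing libraries. Without CD22 the other 6 summed to 4.50, 2.86 and 4.71 CPM in control libraries and to 2.00, 3.41 and 4.31 CPM with overexpression. Of 10 myeloid markers tested, ITGAM and LYZ were lower and 8 were not called, with sums of 74.0, 52.3 and 113 CPM in control libraries and 41.4, 71.8 and 76.2 CPM with overexpression. The most abundant myeloid gene was LYZ in control cells and S100A9 in overexpressing cells. Of the fibroblast markers, 3 were tested and LUM, the most abundant, was higher, the list sum being 39.8, 41.5 and 41.1 CPM in control libraries and 56.0, 57.5 and 58.0 CPM with overexpression, whereas COL1A2 was at 0 in all libraries. Of the endothelial markers only PECAM1 was tested, and it was not called, while their sum was 3.74, 5.86 and 3.63 CPM in control libraries and 4.12, 1.42 and 2.53 CPM with overexpression. Of 14 genes of proximal tubule and epithelium, 9 were tested and PAX8 and GGT1 were higher. KRT8 was the most abundant of these at 1081 ± 170.2 and 1100.0 ± 26.2 CPM (SD, n = 3), and the list summed to 2039, 1998 and 2440.2 CPM in control libraries and to 2336, 2423 and 2385 CPM with overexpression. The endocytic receptor gene LRP2, which defines proximal tubule, was at 0 in all libraries, and CUBN, AQP1, CDH1 and PAX2 were at or near 0.

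The list of 43 genes that carry or process signals of these receptors was tested in full. Of these, 5 were higher and 3 were lower by edgeR, or 18.6% called against 15.9% of all genes tested, and the median log2 fold change was -0.05, close to that of all genes. TRAF1, an adaptor bound by TNFR2, 4-1BB and CD30, was at 24.8, 31.4 and 34.9 CPM in control libraries and at 11.6, 14.6 and 11.1 CPM in overexpressing libraries. The groups were far apart, and the fall was 2.44-fold (log2 fold change -1.29, SE 0.15, edgeR adjusted p = 0.00168). NFKB1, the precursor of the p50 subunit of NF-kB, was at 105, 112 and 115 CPM in control libraries and at 87.3, 84.9 and 81.6 CPM with overexpression, and its log2 fold change was -0.39 (SE 0.06). CYLD, a deubiquitinase that restrains NF-kB signalling, had a log2 fold change of -0.36 (SE 0.07), and lost the call without overexpression replicate 2 (-0.31) or 3 (-0.36). For these 3 genes no overexpressing library reached a control.

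TNFAIP3, which encodes A20, another inhibitor of NF-kB, was at 101, 94.5 and 94.5 CPM in control libraries and at 132, 116 and 123 CPM in overexpressing libraries, all of them above the controls. It rose 1.28-fold (log2 fold change 0.35, SE 0.07, edgeR adjusted p = 0.0108), and the call was lost without overexpression replicate 1 (0.31) or 3 (0.36). ADAM10, a sheddase, rose by 0.27 on the log2 scale, the kinase MAP3K5 (ASK1) by 0.32, the kinase MAP3K14 (NIK) of the noncanonical pathway by 0.27 and the TAK1 adaptor TAB2 by 0.28. Each of these 4 calls was lost without control replicate 2 (0.28, 0.34, 0.22 and 0.29), without overexpression replicate 1 (0.25, 0.33, 0.27 and 0.26), 2 (0.27, 0.28, 0.24 and 0.29) or 3 (0.29, 0.35, 0.30 and 0.29), and those of MAP3K5 (0.29) and MAP3K14 (0.26) also without control replicate 1. TAB2 and MAP3K14 also lost their calls with DESeq2's size factors and without the filter, TAB2 with library sizes alone and MAP3K14 with a replicate block. The 35 other signalling genes had log2 fold changes of -1.14 to 0.37. Without control replicate 3, 14 of the 43 genes were called (32.6%, against 27.0% of all genes). Of these, 9 were higher (20.9%, against 15.8%) and 5 lower (11.6%, against 11.2%).

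Of 30 NF-kB target genes, 28 were tested, 3 of which were higher (10.7%, against 8.95% of all genes) and 9 lower (32.1%, against 6.91%) by edgeR, with a median log2 fold change of -0.25. The list was chosen with earlier results of these data known, so no conclusion about NF-kB targets as a group is drawn from these shares. TRAF1 and TNFAIP3 stand on both lists, which share 5 genes. Among the chemokines, CCL5 was at 8.05, 8.67 and 12.5 CPM in control libraries and at 1.96, 3.09 and 2.11 CPM in overexpressing libraries, and it fell 4.08-fold (log2 fold change -2.03, SE 0.24, edgeR adjusted p = 0.00173). CCL20 was at 2.56, 3.10 and 2.16 CPM in control libraries and at 0.806, 0.824 and 0.881 CPM with overexpression, a 3.11-fold fall, and CCL2 fell 1.68-fold. CCL5 is also a product of T and NK cells. The cytokine CSF2 was at 33.3, 34.5 and 38.5 CPM against 18.5, 19.1 and 21.6 CPM, a 1.79-fold fall, and CD83 fell 2.41-fold, from 22.0 ± 3.11 to 9.13 ± 1.98 CPM (SD, n = 3). For these 5 genes every overexpressing library lay below every control library.

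Smaller falls were those of TNFAIP2, with a log2 fold change of -0.33 (SE 0.05), SOD2, at -0.37 (SE 0.07), and the adhesion molecule ICAM1, at -0.25 (SE 0.07). SOD2, a mitochondrial antioxidant enzyme, overlaps WTAP on the opposite strand, which was at 132 CPM in control cells and 125 CPM in overexpressing cells on average. The antiapoptotic gene BCL2L1 rose by 0.37 on the log2 scale and IER3 by 0.24. Without overexpression replicates 2 and 3 in turn, the calls of SOD2 (-0.36 and -0.35), CCL2 (-0.67 and -0.74), ICAM1 (-0.26 and -0.24), BCL2L1 (0.36 and 0.37) and IER3 (0.23 and 0.24) were lost. Those of ICAM1 (-0.26 and -0.24), BCL2L1 (0.32 and 0.39) and IER3 (0.22 and 0.24) were also lost without control replicate 2 and overexpression replicate 1 in turn, and those of BCL2L1 (0.33) and IER3 (0.21) without control replicate 1. Without control replicate 3 the log2 fold changes were -0.57 for CCL2, -0.29 for SOD2, -0.18 for ICAM1, 0.47 for BCL2L1 and 0.29 for IER3. These calls were kept there. NFKBIA, which encodes the inhibitor of NF-kB that its own target genes include and was picked after its values were seen, had a log2 fold change of -0.01, which was 0.23 without control replicate 3, and was not called in either case. Without control replicate 3, 14 of the 28 genes were called, 3 higher and 11 lower, where 15.8% of all genes were higher and 11.2% lower.

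**Figure D3:**
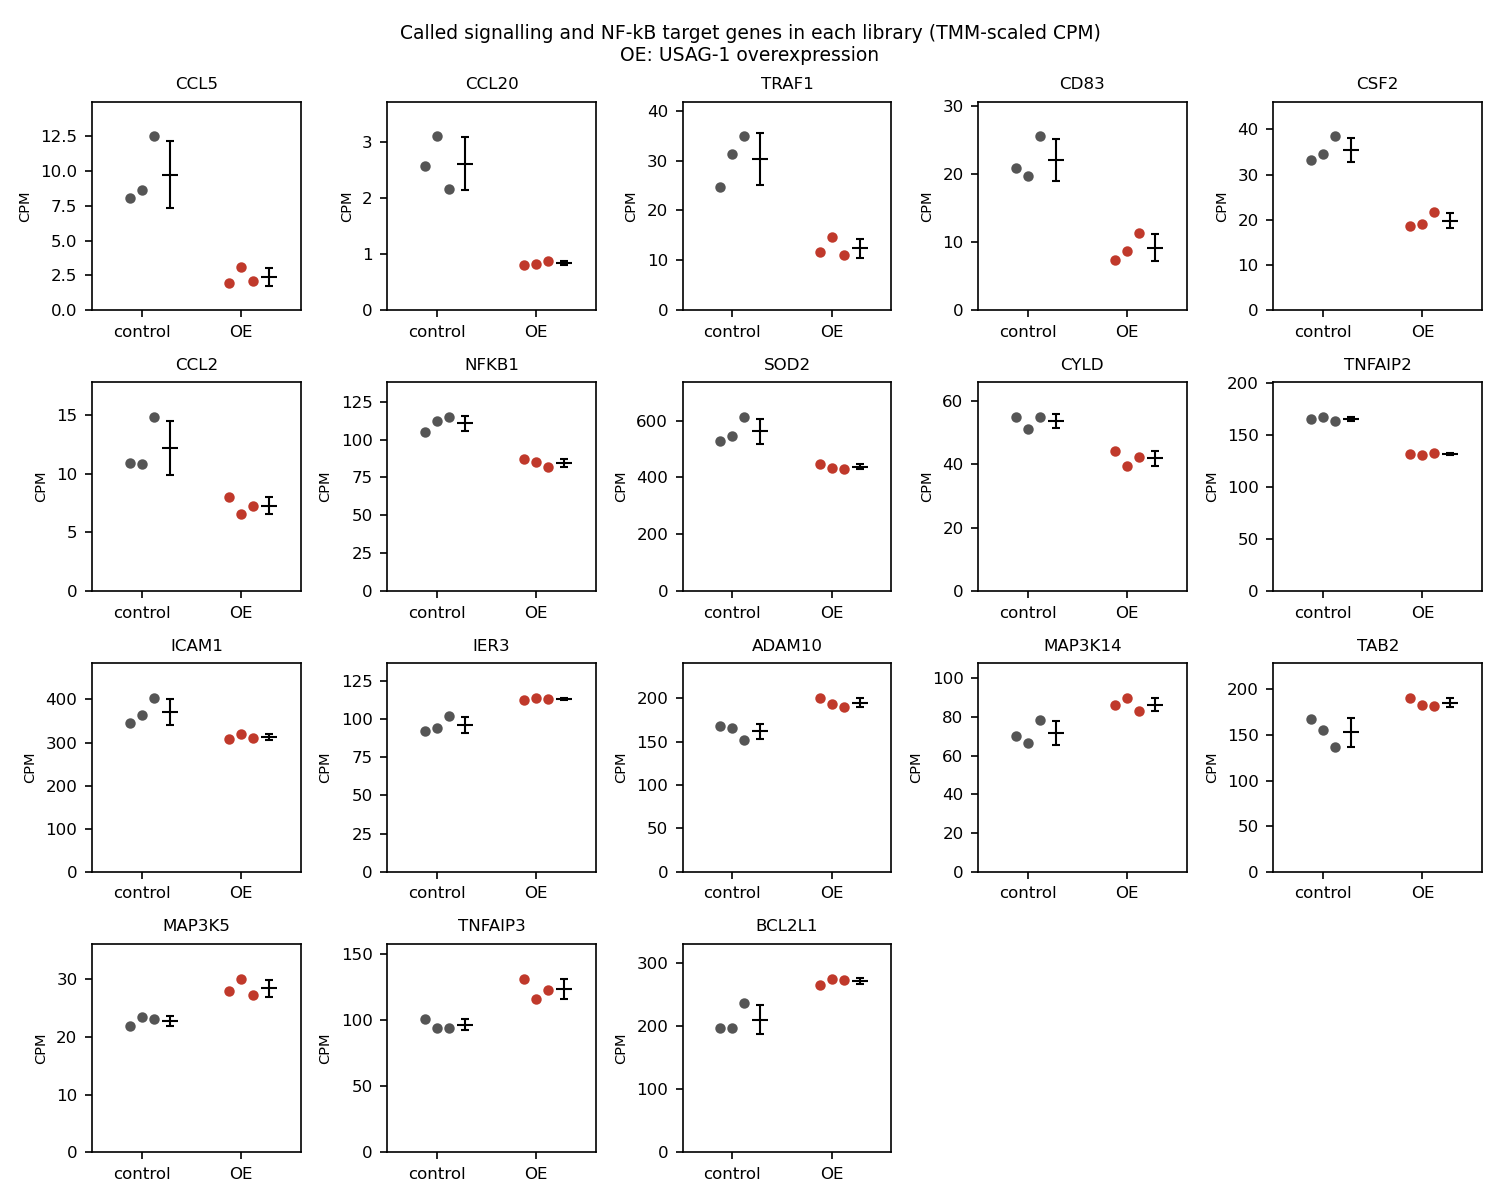
Level in CPM (vertical axes from 0) of the 18 called genes of the signalling and NF-kB target lists in each control library (grey) and each library with USAG-1 overexpression (red, OE), replicates 1 to 3 from left to right, with the mean and SD (n = 3). The panels run from the largest fall, that of CCL5 at 4.08-fold, to the largest rise, that of BCL2L1 at 1.29-fold.

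Mitochondrially encoded genes took 5.59%, 5.48% and 4.80% of the counts in control libraries and 1.55%, 1.50% and 1.55% in overexpressing libraries. With these genes left out of the library sizes and the test, the same 12 members were called in the same directions.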

How the data were processed

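The authors deposited 1 table of whole-number counts per gene for the 6 libraries, without normalization and under a name that speaks of FPKM. Cutadapt 1.9, FastQC and the build hg38 stand in the submitters' processing notes. The aligner, the counting tool, its strand setting and the annotation are not given in the sources used here. The labels describe poly(A) selection and a strand-specific protocol in one place and removal of ribosomal RNA and another sequencer elsewhere.

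Groups and replicate numbers came from the labels. With edgeR 4.0.16 in R 4.3.3, filterByExpr removed genes of low count, TMM set the scale and the quasi-likelihood test compared the groups. Benjamini-Hochberg adjustment covered 18188 genes, and an adjusted p below 0.05 made a call at any fold change. The standard error was taken as the size of the log2 fold change over the square root of F. DESeq2 1.42.0 and limma-voom (limma 3.58.1) were alternatives, with other scalings, filters and thresholds, a replicate block, and each library left out in turn. Python 3.11.15 and matplotlib 3.10.9 drew the figures. The code was tested on simulated data.

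The members and lists were chosen with earlier results of these data known, and the grouping by role and the ligand and receptor pairs were typed after the values had been seen. Values in every library were to be given for each called member, TNFRSF12A and members not called with a mean of at least 5 CPM, and for the lists the called genes were to be named. Other genes named were chosen after their values were seen.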

Additional observations from a re-analysis of the deposited data

How the results depend on the processing

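The same 12 members were called with DESeq2's size factors, with library sizes alone, with mitochondrially encoded genes left out and with SOSTDC1 left out of the library sizes. In these fits 15.7% to 16.1% of all genes were called. DESeq2's Wald test and limma-voom kept all 12 and called 15 and 14 members in all, among 10.4% and 15.9% of all genes. DESeq2 added TNFRSF10A, TNFRSF6B and TNFSF12, and limma-voom added TNFSF12 and TNFSF8. In the main fit TNFSF12 and TNFSF8 had reached the filter's level throughout the control group alone. Without a filter on low counts 10 members were called, among 6.26% of all genes, LTBR and TNFRSF12A being lost. With at least 10 counts in every library 13 were called, among 19% of all genes, TNFSF15 being gained. Among signalling genes, TAB2 lost its call with DESeq2's size factors or library sizes alone, and MAP3K14 with DESeq2's size factors or a replicate block. Both lost it without the filter. The NF-kB targets ICAM1 and IER3 lost theirs without the filter or with a replicate block.

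With each library left out in turn, 630 to 2985 genes were called higher and 507 to 2106 lower. Over the same refits, 0 to 7 members were called higher, 6 to 11 lower, 2 to 14 signalling genes were called and 6 to 14 NF-kB target genes. Fewer libraries were fitted there. With a log2 fold change of at least 1 in size also required, 100 genes were higher and 395 lower, 0 members higher and 3 lower, and 1 signalling gene and 4 NF-kB target genes were called. At an adjusted p under 0.01, 635 genes were higher and 469 lower, 0 members were higher and 6 lower, and 2 signalling genes and 7 NF-kB target genes were called. These thresholds are stricter by construction.

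The log2 fold change of 3 members that were not called changed sign, and the cause was not tested. With each library left out it ran from -0.50 to 0.19 for TNFSF4, from -0.31 to 0.44 for TNFRSF13C and from -0.33 to 0.34 for TNFRSF25, and limma-voom gave 0.12 for TNFRSF25.

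Libraries of the same replicate number deviated from their group means with correlations of 0.07, -0.05 and 0.04, so the numbers were not taken as pairs. With a replicate block, 12 members were called, among 13.1% of all genes. Of these members 11 were as before, with LTBR lost and TNFRSF6B gained, and TNFRSF25 was at 0.10. Depth limits the members with few counts, of which 6 were not tested.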

Other observations

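The libraries that were high for the decoy receptor TNFRSF10C were also high for 3 of the 10 myeloid markers, S100A8, S100A9 and TYROBP, which were picked after their values were seen. Of the other 7 myeloid markers, CD163 and CSF1R had the reverse division and 5 had neither. TNFRSF10C was at 0.192, 0.426 and 1.59 CPM in control libraries and at 0.109, 1.42 and 1.83 CPM in overexpressing libraries. S100A8 was at 2.87, 1.93 and 23.0 CPM in control libraries and at 2.22, 16.2 and 9.96 CPM with overexpression, and S100A9 was at 13.7, 9.73 and 47.9 CPM against 8.08, 28.5 and 33.2 CPM. In TNFRSF10C, S100A8 and S100A9 control replicate 3 and overexpression replicates 2 and 3 were above the other 3 libraries, so that the difference ran within both groups, and none of these genes was called by edgeR between them. The adaptor gene TYROBP had the same division, at 1.84, 1.26 and 4.34 CPM in control libraries and 1.61, 3.09 and 2.87 CPM with overexpression. The same division appeared by sign on the second principal component. There the controls scored 28.2, 25.2 and -54.3 and the overexpressing libraries 22.2, -16.4 and -4.90. Control replicate 3 lay farthest out, and how many other genes shared the division was not counted.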
